A study of Homo sapiens with 6 samples.

Results

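The genes described here are the transcription factors KLF2, KLF3, KLF6 and KLF13, the lymphocyte homing receptors S1PR1, CCR7, CCR9 and CXCR4, and the cytokine receptor IL7R. They were chosen by name, as KLF and FOXO-linked genes of resting T cells, with a mean of at least 10 normalized counts over the 6 libraries. Of the 9 genes, 8 met the rule, out of 17202 genes in the table; no value of KLF2 was analysed here. The libraries came from DND41, an established human T-cell acute lymphoblastic leukaemia line. In 3 of them the cells had been treated with MB1-47, a mitochondrial uncoupling drug per the series title, and in 3 with its solvent control DMSO, each for 24 h in RPMI medium with serum. The labels write the dose as 4 mM, a unit that was not checked, and all libraries share the 1 cell line. Plating was in triplicate per the labels, which do not state whether the cultures were separate. The p-values therefore reflect library-to-library spread alone, and that spread could be technical.

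Resting T cells keep themselves quiescent and on patrol through a short chain of factors. FOXO1 promotes transcription of KLF2 and IL7R, and KLF2 in turn promotes S1PR1, which carries cells out of lymphoid organs. KLF proteins bind GC-rich and CACCC sequences through C-terminal zinc fingers, and the homing receptors are G-protein-coupled receptors that read gradients of chemokines or of the lipid sphingosine 1-phosphate (S1P). In thymocytes and T-cell leukaemia these receptors are known for guiding cells to the thymus, gut and bone marrow.

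KLF6 and CCR9 were each about as high again in MB1-47 libraries as in DMSO libraries. CXCR4 rose by a smaller amount, a call that was lost when any of 4 of the 6 libraries was left out. KLF3, KLF13, S1PR1, CCR7 and IL7R did not pass the test. The count past the threshold, 3 of 8 or 37.5%, is read against 38.1% of all 13465 genes tested, so the share called was near the background. All 3 were higher, against 18.3% of all genes called higher and 19.8% called lower. The groups did not overlap for 6 of the 8 genes, against 49.3% of all genes. Across all genes 2458 were called higher and 2667 lower, 48.0% higher among those called. Scaling the libraries to equal totals made that 3335 and 2063, or 61.8%. The median log2 change of the 8 genes was 0.44, beside 0.02 for all genes tested. The test was limma's moderated test on log2(value + 1) over all genes, with Benjamini-Hochberg adjustment and a threshold of 0.05. Changes are log2 differences of MB1-47 minus DMSO ± SE on that scale, and levels are deposited normalized counts with their SD (n = 3).

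**Figure D1:**
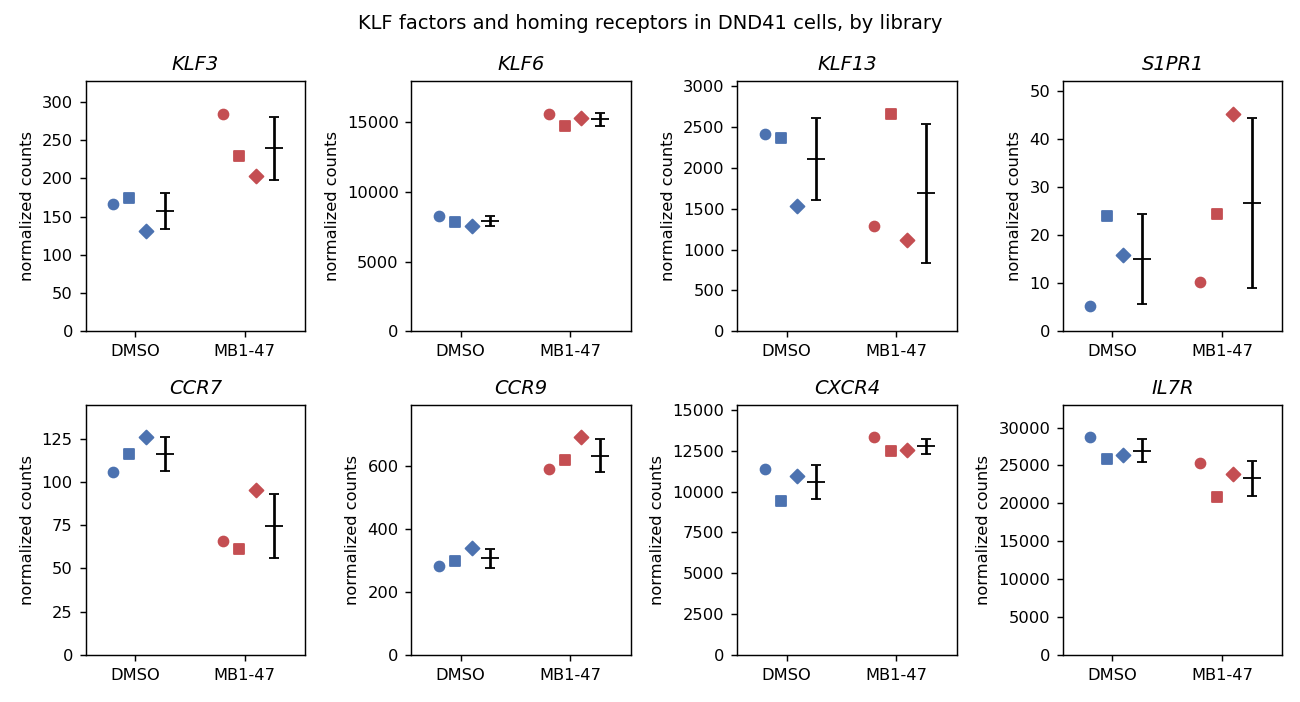
Deposited normalized counts (linear axes from 0) of the 8 genes in each DMSO library (blue) and MB1-47 library (red), with circles for replicate 1, squares for replicate 2 and diamonds for replicate 3; black marks are the mean ± SD of 3 libraries. The KLF6 and CCR9 groups stand well apart, whereas MB1-47 replicate 2 of KLF13 lies above all DMSO libraries.

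The total of normalized values per library ran from 28323706 to 32667526; these are not depths, and the depth is unknown. Libraries of the same group correlated at 0.955 to 0.968 on the log2 scale, and libraries of different groups at 0.927 to 0.948. The T-lineage label was checked against 12 marker genes with values, and CD3D, CD3E, CD3G, CD7 and TLX3 were all present. CD2 and CD5 were low, with means under 50 normalized counts, and PTCRA and TRBC2 were not analysed here. Of 6 myeloid markers 2 had values, CD14 and LYZ, and neither was abundant enough to test. Their summed level was at most 22.9, and CD14 was listed at 0 in all MB1-47 libraries. The other myeloid markers were not analysed here. Of the T-lineage markers, 6 of 12 (50%) were called lower, beside 19.8% of all genes, and 0 higher, beside 18.3%. Their summed level was 55128 to 60612 in DMSO libraries and 31987 to 37249 in MB1-47 libraries. B-lineage markers summed to 16813 to 18078 and to 7554 to 8473, in the same order. PECAM1, the 1 endothelial marker tested, was at 978 to 1501 and at 513 to 612. The part of these shifts in the receptor values was not tested. In bulk RNA, fewer cells expressing a gene and less RNA of it per cell cannot be told apart.

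Among the KLF factors, KLF6 changed most clearly. KLF6 is a widely expressed zinc finger factor on chromosome 10 from 3775996 to 3785281, on the minus strand. DMSO replicates 1, 2 and 3 gave 8277, 7802 and 7575 normalized counts, and MB1-47 replicates 1, 2 and 3 gave 15611, 14705 and 15267. All 3 treated libraries lay far above all 3 controls, and the spread within either group was small. The mean went from 7884 ± 358 to 15194 ± 457, a 1.93-fold rise (0.95 ± 0.07; 95% confidence interval 0.78 to 1.11; limma adjusted p = 4.2e-06). Its change stayed past the threshold in all 15 alternative settings, between 0.92 and 1.10.

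The promoter window of KLF6 runs from 250 bases before to 50 after the start site, as RefSeq gives it on GRCh38.p14. It is shown because, among the tested KLF factors of the rule, only KLF6 was called higher. It spans chr10:3785160-3785459 on the minus strand and is written 5′ to 3′. Capitals mark the GC box GGGCGG (or its reverse complement CCGCCC), a sequence that KLF and SP proteins are known to bind.

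KLF6 promoter: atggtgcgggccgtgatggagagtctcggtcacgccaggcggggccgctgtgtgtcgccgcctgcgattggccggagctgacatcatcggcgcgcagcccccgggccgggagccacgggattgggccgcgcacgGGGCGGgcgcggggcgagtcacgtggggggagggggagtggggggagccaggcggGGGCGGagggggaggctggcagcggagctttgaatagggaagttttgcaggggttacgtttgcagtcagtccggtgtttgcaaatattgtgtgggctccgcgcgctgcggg

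The 2 capitalised boxes begin 116 and 61 bases before the start. A GC box on either strand is present in 45.0% of 35116 promoter windows of that length, so the match is common and says nothing of what binds there.

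KLF3 stood higher in every treated library without passing the test. KLF3 is a repressor that recruits CtBP and lies on chromosome 4 from 38664196 to 38701042. It was at 167, 175 and 131 normalized counts in DMSO replicates 1, 2 and 3, and at 285, 230 and 203 in MB1-47 replicates 1, 2 and 3. The groups did not overlap, but the change of 0.60 ± 0.24 had an adjusted p of 0.0736 by limma. With equal library totals the value was 0.72 (adjusted p = 0.0368), the only 1 of 15 alternatives in which KLF3 passed. The opposite-strand gene KLF3-AS1 shares 266 exonic bases with it, 4.22% of its exonic length, and no value of that gene was used here.

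KLF13 varied more between replicates than KLF3 or KLF6. KLF13, known in T lymphocytes as an activator of the chemokine gene CCL5, lies on chromosome 15 from 31326855 to 31435665. DMSO replicates 1, 2 and 3 gave 2422, 2373 and 1532 normalized counts. MB1-47 replicates 1, 2 and 3 gave 1290, 2666 and 1117. Replicate 2 of the treated group was the highest of all 6 libraries, and the other treated libraries were the lowest. The coefficient of variation in the MB1-47 group was 50.2%, against 3.01% for KLF6. The change was -0.40 ± 0.29 (limma adjusted p = 0.304), and without MB1-47 replicate 2 it was -0.78 (adjusted p = 0.00959). That 1 library therefore decides the call. KLF5, named after its values were seen, also had its highest value there, at 303 normalized counts in MB1-47 replicate 2 and 104 and 114 in replicates 1 and 3. Other KLF genes were mixed in the treated libraries. KLF10 and KLF16 were highest in replicate 2, KLF6 and KLF12 were lowest there, and KLF3 was in between.

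Of 18 KLF family genes listed, KLF3, KLF6 and KLF13 included, 9 were tested. Of these 2 (22.2%) were higher and 2 (22.2%) lower, shares near the 18.3% and 19.8% of all genes, and the median of the 9 was -0.03. KLF12, a repressor, rose from 6362 ± 263 to 9466 ± 654 normalized counts (0.57 ± 0.08; limma adjusted p = 0.00028). KLF10, which is induced by TGF-beta, fell from 289 ± 26.7 to 91.5 ± 22.5 (-1.67 ± 0.26; adjusted p = 0.000476). KLF16 fell from 790 ± 39.4 to 454 ± 39.8 (-0.80 ± 0.14). KLF7, also named after its values were seen, ranged from 68.3 to 287 in the DMSO libraries and from 258 to 306 in the MB1-47 libraries, so its groups overlapped and its change of 0.90 ± 0.42 did not pass. KLF4 was not analysed here.

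**Figure D2:**
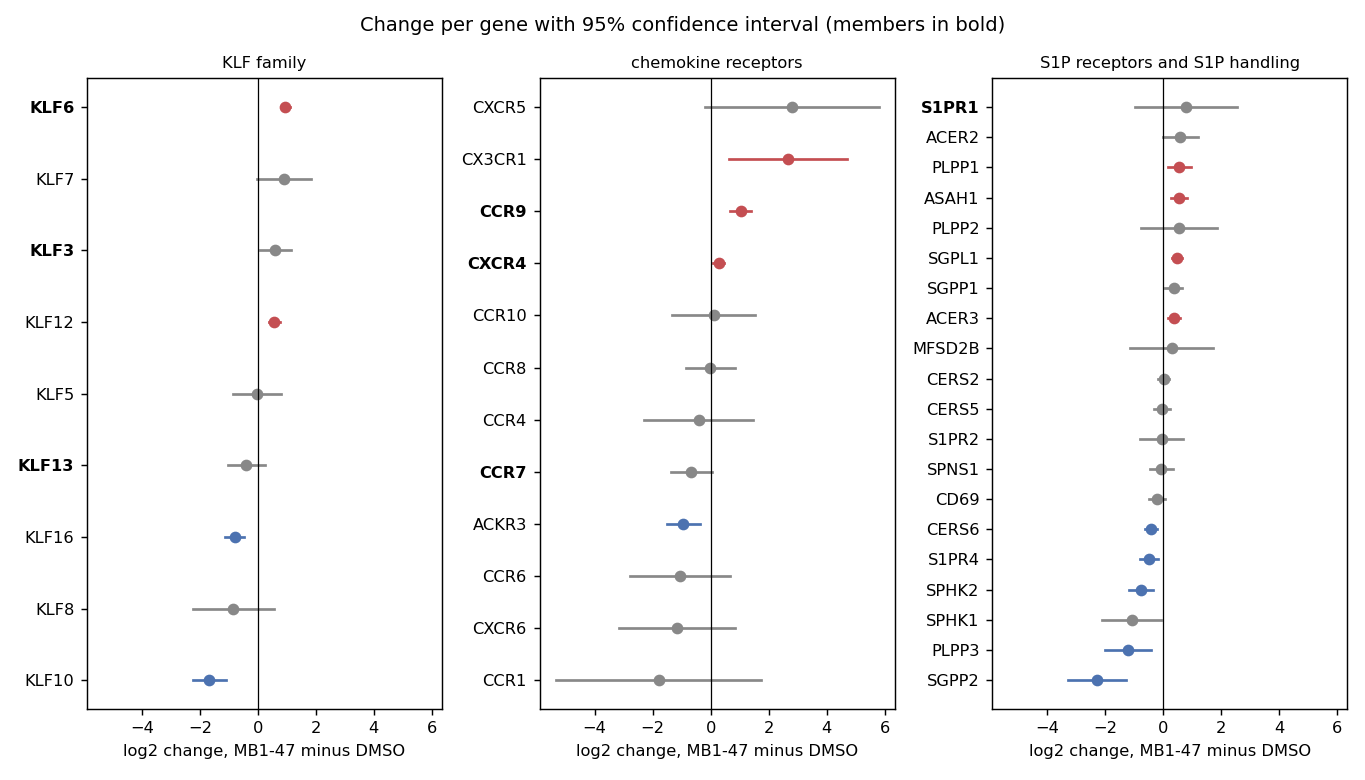
Log2 change of MB1-47 minus DMSO (points) with its 95% confidence interval (lines) for the tested genes of 3 lists, red where a gene was higher, blue where lower and grey where it did not pass; the genes of the rule are in bold. KLF6, CCR9 and CXCR4 are the bold genes in red, and S1PR1 has an interval that spans 0 widely.

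Of the chemokine receptors, CCR9 showed the largest change of the 8 genes. CCR9, the receptor for CCL25 on thymocytes and gut-homing T cells, lies on chromosome 3 from 45886504 to 45903177. It measured 282, 297 and 341 normalized counts in DMSO replicates 1, 2 and 3. With MB1-47, replicates 1, 2 and 3 stood at 590, 618 and 691. The lowest treated library was well above the highest control. The mean went from 307 ± 30.4 to 633 ± 52.1, a 2.06-fold rise (1.04 ± 0.16; 95% confidence interval 0.68 to 1.40; limma adjusted p = 0.00047). It stayed past the threshold in all 15 alternative settings, with changes from 0.98 to 1.17. CCR9 lies within the span of LZTFL1 on the opposite strand and shares 0 exonic bases with it.

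RefSeq gives CCR9 a pair of start sites, and the promoter windows of both are shown because the gene-level value does not say which start carried the rise. They lie on the plus strand of GRCh38.p14 at chr3:45886293-45886592 and chr3:45893967-45894266. Capitals mark the CACCC box, a KLF-type sequence, or its reverse complement GGGTG.

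CCR9 upstream promoter: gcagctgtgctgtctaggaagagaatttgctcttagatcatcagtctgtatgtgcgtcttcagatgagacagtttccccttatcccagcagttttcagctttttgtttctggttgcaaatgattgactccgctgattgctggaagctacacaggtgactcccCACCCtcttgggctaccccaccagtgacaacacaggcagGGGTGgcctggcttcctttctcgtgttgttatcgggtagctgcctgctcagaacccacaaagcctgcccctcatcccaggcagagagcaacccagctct
CCR9 downstream promoter: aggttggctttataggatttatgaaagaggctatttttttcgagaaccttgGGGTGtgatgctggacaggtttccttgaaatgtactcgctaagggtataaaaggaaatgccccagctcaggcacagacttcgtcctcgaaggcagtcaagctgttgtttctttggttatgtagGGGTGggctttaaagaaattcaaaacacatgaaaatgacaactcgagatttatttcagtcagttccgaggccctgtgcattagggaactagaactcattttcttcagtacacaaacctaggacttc

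Each window holds 2 such boxes, at 88 and 49 bases before the start in the upstream window and at 199 and 76 bases before it in the downstream window. CACCC on either strand is found in 59.9% of all promoter windows. Across the 10 windows of the 7 genes matched by symbol (KLF2, KLF6, KLF13, S1PR1, CCR9, CXCR4 and IL7R), 7 held a CACCC box and 5 a GC box. The core FOXO sequence GTAAACA (reverse complement TGTTTAC) was in 0 of the 10 windows, against 3.42% of all windows. These are matches of letters in a short window and not binding sites.

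CXCR4, the receptor for CXCL12 that holds leukaemic and progenitor cells in the bone marrow, rose by a small amount. It lies on chromosome 2 from 136114349 to 136118165. DMSO replicates 1, 2 and 3 gave 11405, 9410 and 10975 normalized counts. MB1-47 replicates 1, 2 and 3 gave 13323, 12475 and 12529. The groups did not overlap, though the gap between them was smaller than the range of the controls. The mean went from 10597 ± 1050 to 12776 ± 475, a 1.21-fold rise (0.27 ± 0.09; 95% confidence interval 0.08 to 0.47; limma adjusted p = 0.0302). The call was lost without DMSO replicate 2 (0.19; adjusted p = 0.0925), DMSO replicate 3 (0.0583), MB1-47 replicate 1 (0.102) or MB1-47 replicate 3 (0.0675). With equal library totals the change was 0.40 and with quantile normalization 0.44, so the size depended on scaling while the direction did not.

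CCR7, which brings T cells into lymph nodes and is a known target of FOXO1 and NOTCH signalling in T-cell leukaemia, stood lower in each treated library without passing. It is on chromosome 17 from 40553769 to 40565472. The DMSO libraries held 106, 117 and 126 normalized counts in replicates 1, 2 and 3, and the MB1-47 libraries 66.1, 61.3 and 95.7. The groups did not overlap, and the highest treated library came close to the lowest control. The change of -0.66 ± 0.31 (95% confidence interval -1.35 to 0.03; limma adjusted p = 0.125) missed the threshold in all 15 alternatives, with adjusted p from 0.052 to 0.28. The difference between the changes of CCR7 and CCR9 was not tested.

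Of 23 listed chemokine receptors 18 had values, and 12 were abundant enough to test. CCR9, CXCR4 and CX3CR1 were higher (25%, beside 18.3% of all genes), ACKR3 was lower (8.33%, beside 19.8%) and the other 8 did not pass (median -0.20). The higher count was 1 without DMSO replicate 2 or MB1-47 replicate 1 or 3. ACKR3, the scavenging receptor that shares CXCL12 with CXCR4, fell from 241 ± 15.8 to 128 ± 28.9 normalized counts (-0.93 ± 0.25; limma adjusted p = 0.0128). CX3CR1, the fractalkine receptor, is named outside the rule and after its values were seen. It stood at 0.826, 14.6 and 25.8 in the DMSO libraries and at 87.3, 54.1 and 38.8 in the MB1-47 libraries (2.66 ± 0.93; limma adjusted p = 0.0424). Its call was lost in 7 of 14 alternatives, among them those without DMSO replicate 1 (1.499) or DMSO replicate 2 (3.05) and without MB1-47 replicate 1 (2.36), replicate 2 (2.70) or replicate 3 (2.93). CXCR5, the B-follicle homing receptor, was at 99.3 and 67.4 in DMSO replicates 1 and 3 and listed at 0 in replicate 2. In MB1-47 replicates 1, 2 and 3 it was at 175, 114 and 113, and it did not pass (limma adjusted p = 0.13). Without DMSO replicate 1 it passed (4.00; adjusted p = 0.0355), and without DMSO replicate 2 its change was 0.67.

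S1PR1, the S1P receptor through which lymphocytes leave lymphoid organs, was present at low values in all libraries. It lies on chromosome 1 from 101236865 to 101243713. DMSO replicates 1, 2 and 3 were at 5.26, 23.9 and 15.8 normalized counts and MB1-47 replicates 1, 2 and 3 at 10.2, 24.4 and 45.2. The groups overlapped, and the highest library was a treated one and the lowest a control. The change of 0.78 ± 0.80 (95% confidence interval -0.98 to 2.54; limma adjusted p = 0.48) spans falls as well as rises. Without DMSO replicate 1 the change was 0.21, and without MB1-47 replicate 1 it was 1.32. S1PR1 met the mean of 10 with a mean of 20.8 over the 6 libraries, the lowest of the 8 genes.

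Of 25 genes listed that sense, make or destroy S1P, 20 were tested. The 4 higher (20.0%) and 5 lower (25%) were shares near the 18.3% and 19.8% of all genes, with a median of -0.02. Without DMSO replicate 3 the lower count was 3. S1PR4, the S1P receptor of haematopoietic cells, went from 1357 ± 109 to 966 ± 144 normalized counts (-0.50 ± 0.14; limma adjusted p = 0.0153). That call was lost with equal library totals (-0.37), with limma's trend off, and without DMSO replicate 3 (-0.45) or MB1-47 replicate 1 (-0.38). SPHK2, a kinase that makes S1P, fell from 558 ± 49.8 to 330 ± 72.1 (-0.77 ± 0.19), and SGPP2, an S1P phosphatase, fell from 121 ± 42.2 to 23.5 ± 7.05 (-2.29 ± 0.45). SGPL1, the lyase that destroys S1P irreversibly, rose from 5413 ± 278 to 7551 ± 337 (0.48 ± 0.08), and the ceramidase gene ASAH1 changed by 0.54 ± 0.12. CD69, whose product pulls S1PR1 off the cell surface, was at 1237 ± 79.5 and 1073 ± 103 and did not pass (limma adjusted p = 0.212).

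Of the genes for homing selectins, integrins and their ligands, 23 were tested. The 6 higher (26.1%) and 5 lower (21.7%) stood beside 18.3% and 19.8% of all genes, with a median of 0.09. The lower count was 3 without DMSO replicate 3 and 3 with equal library totals. ITGA6, the laminin receptor subunit, rose from 404 ± 81.8 to 1127 ± 78.7, a 2.82-fold change. The chains of LFA-1 had opposite signs. ITGAL, the alpha chain, rose from 227 ± 15.4 to 350 ± 14.4 (0.62 ± 0.18; limma adjusted p = 0.0206), a call lost without DMSO replicate 2 (0.57) or MB1-47 replicate 2 (0.59) or 3 (0.63). ITGB2, the beta chain, fell from 2246 ± 209 to 1351 ± 73.9 (-0.73 ± 0.11), and SPN, the sialomucin CD43, fell from 16551 ± 1213 to 7490 ± 1104 (-1.15 ± 0.11).

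Of 34 signalling genes downstream of these receptors, 4 (11.8%) were higher and 12 (35.3%) lower, with a median of -0.21, beside 18.3% and 19.8% of all genes. With equal library totals or quantile normalization 10 were higher. Without DMSO replicate 2 or 3 or MB1-47 replicate 1 or 3, 2 were. The arrestin genes, whose products end receptor signalling, both fell. ARRB1 went from 2112 ± 190 to 1161 ± 169 (-0.87 ± 0.13), and ARRB2 changed by -0.66 ± 0.12. RGS1, which dampens chemokine receptor signals in lymphocytes, rose from 1159 ± 57.2 to 2365 ± 150 (1.03 ± 0.10; limma adjusted p = 2.46e-05). GNA13, the G protein alpha subunit through which S1P receptors can halt migration, changed by 0.59 ± 0.08. RGS3 and RGS14, of the same family as RGS1, fell from 239 ± 12.4 to 91.2 ± 21.1 and from 315 ± 90.7 to 143 ± 28.5 normalized counts. ELMO1, which links receptors to RAC activation, changed by -0.82 ± 0.09.

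IL7R, the interleukin 7 receptor alpha chain that keeps naive T cells alive, stood slightly lower in every treated library without passing. It lies on chromosome 5 from 35852695 to 35879603 and ranked 104 of 13465 tested genes by mean normalized count, a rank that is not corrected for length. DMSO replicates 1, 2 and 3 gave 28700, 25797 and 26334 normalized counts. MB1-47 replicates 1, 2 and 3 gave 25324, 20804 and 23882. The groups did not overlap, but the highest treated library nearly reached the lowest control. The change was -0.21 ± 0.09 (95% confidence interval -0.41 to -0.02; limma adjusted p = 0.0836). Its direction depended on scaling: it was -0.08 with equal library totals and 0.04 with quantile normalization. The IL7R promoter window at chr5:35856641-35856940 on the plus strand of GRCh38.p14 is shown because IL7R is a known FOXO1 target. It holds none of the 3 sequences searched and so has no capitals. Sites outside this short window were not searched, so the lack of matches says nothing of FOXO1 control of IL7R. CACCC boxes were in windows of KLF13 and S1PR1, which did not pass the test, and of CCR9 and CXCR4, which did. The KLF6 window held no CACCC box, though KLF6 passed, and a link between boxes and changes was not tested.

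IL7R promoter: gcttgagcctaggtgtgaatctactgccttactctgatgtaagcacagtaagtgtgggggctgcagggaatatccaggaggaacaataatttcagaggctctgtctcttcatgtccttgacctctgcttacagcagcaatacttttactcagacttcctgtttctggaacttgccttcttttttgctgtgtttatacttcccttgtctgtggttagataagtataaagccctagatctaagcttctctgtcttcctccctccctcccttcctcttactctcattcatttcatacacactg

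Among the 5 protein-coding genes whose log2 values followed IL7R most closely over the 6 libraries, of 9881 with a mean of at least 100, were CBFB (Pearson's r = 0.995), DPY19L1 (0.994), EIF4G2 (0.994) and GBE1 (0.989). These correlations are descriptions over 6 libraries that all genes share, and they were picked as the highest of the 9881.

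Genes that work with IL7R or downstream of it gave mixed results. IL2RG, the common gamma chain with which IL7R signals, was at 13546 ± 1106 and 11619 ± 696 normalized counts (-0.22 ± 0.09; limma adjusted p = 0.0671) and did not pass, though without DMSO replicate 2 it did (-0.29; adjusted p = 0.0247). JAK1, the kinase bound to IL7R, is named after its values were seen. It rose from 7246 ± 493 to 12700 ± 849 (0.81 ± 0.09; limma adjusted p = 3.13e-05). BCL2, a survival gene induced by interleukin 7, rose from 5319 ± 202 to 10338 ± 436 (0.96 ± 0.08; limma adjusted p = 4.97e-06). The cytokine receptor list had 21 tested genes, of which 6 (28.6%) were higher and 3 (14.3%) lower (median -0.21), beside 18.3% and 19.8% of all genes. Under the 15 alternatives the higher count ran from 4 to 7. The lower count was 0 without MB1-47 replicate 3, 1 without DMSO replicate 3 or MB1-47 replicate 1, and 1 with equal library totals. The lower genes were IL12RB1, a chain of the interleukin 12 receptor (-1.01 ± 0.33), IL27RA, of the interleukin 27 receptor (-0.55 ± 0.17), and IL9R (-2.18 ± 0.71), the last named after its values were seen. Each lost its call when any of several single libraries was left out: IL12RB1 without DMSO replicate 2 or 3 or MB1-47 replicate 2 or 3, IL27RA without DMSO replicate 2 or 3 or MB1-47 replicate 1 or 3, and IL9R without any of them but MB1-47 replicate 2. IL6ST, the shared receptor gp130, changed by 1.61 ± 0.29 and TGFBR2 by 0.72 ± 0.10. Of 30 JAK-STAT genes, 14 (46.7%) were higher and 4 (13.3%) lower (median 0.29), the latter 2 without DMSO replicate 1 or 3 or MB1-47 replicate 2. Among them were SOCS7 at 1.18 ± 0.11 and the kinase gene PIM1 at -1.12 ± 0.08. The related kinase genes went apart, with PIM2 at 1.04 ± 0.18 while PIM3 fell from 1887 ± 127 to 948 ± 96.8 normalized counts.

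The genes listed as FOXO-linked or as quiescence genes of resting T cells were largely higher. Of 34 tested, 27 (79.4%) were higher and 2 (5.88%) lower, beside 18.3% and 19.8% of all genes, and 5 were short of the threshold. Their median was 0.81, beside 0.02 for all genes. This list includes genes already known to be high in these libraries, so its count is not independent evidence. FOXO1 itself rose from 293 ± 52.4 to 523 ± 44.4 normalized counts (0.84 ± 0.19; limma adjusted p = 0.00443). PIK3IP1, an inhibitor of PI3-kinase found in resting T cells, went from 47.9 ± 14.3 to 262 ± 26.1 (2.47 ± 0.31), and CCNG2, a cyclin of cells leaving the cycle, changed by 2.56 ± 0.13. BCL6, a repressor that FOXO factors induce, rose from 226 ± 47.2 to 1813 ± 204 (3.01 ± 0.18), and TSC22D3, the glucocorticoid-induced leucine zipper gene, changed by 2.33 ± 0.37. The 2 lower genes were LEF1 (-0.27 ± 0.08) and RUNX1 (-0.20 ± 0.07), small changes that were lost with equal library totals and quantile normalization. LEF1 also lost its call without DMSO replicate 1 or 3 or MB1-47 replicate 3, and RUNX1 without any 1 of the 6 libraries.

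**Figure D3:**
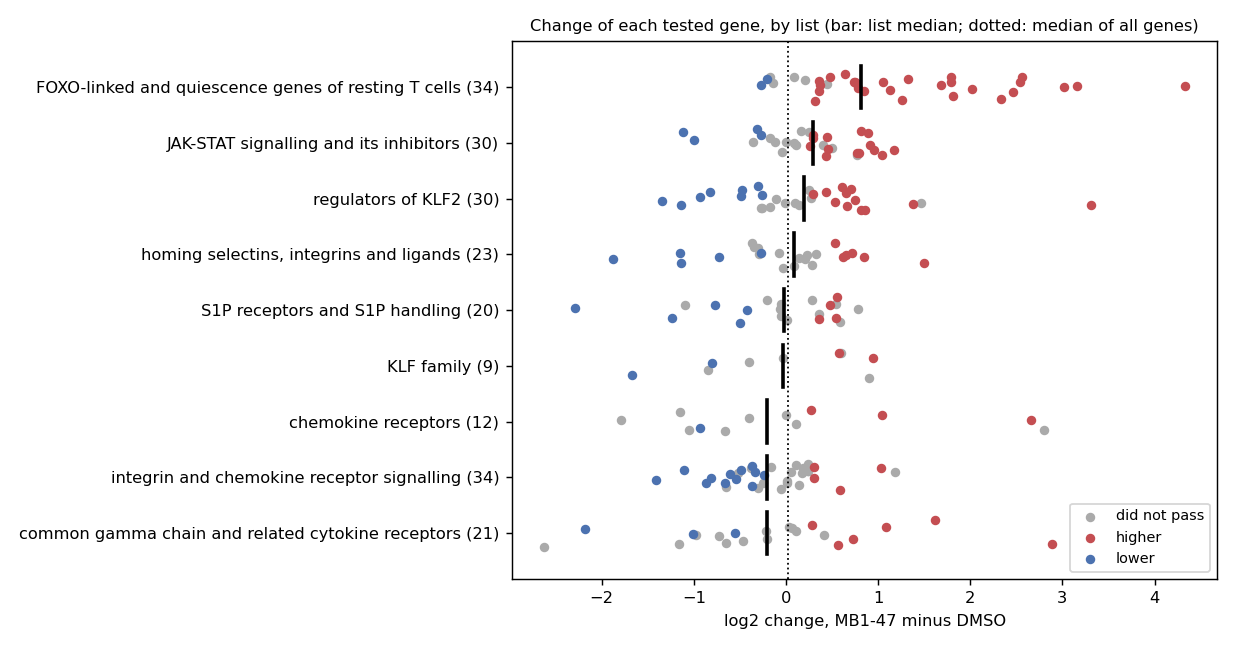
Log2 change of MB1-47 minus DMSO for each tested gene of 9 lists (numbers tested in brackets), with red for higher, blue for lower and grey for genes that did not pass; vertical offsets within a list have no meaning. The black bar is each list's median, at 0.81 for FOXO-linked genes and -0.03 for the KLF family, and the dotted line is the median of all genes, 0.02.

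Genes that act on KLF2 were split. Among 30 tested there were 12 higher (40.0%, beside 18.3% of all genes) and 8 lower (26.7%, beside 19.8%), with a median of 0.20. MAPK7, the kinase ERK5 that drives KLF2 transcription through MEF2 factors, rose from 869 ± 107 to 1371 ± 224 normalized counts (0.65 ± 0.15; limma adjusted p = 0.00638). MEF2A rose from 3615 ± 168 to 6373 ± 264 (0.82 ± 0.08), whereas MEF2D did not pass (0.27 ± 0.11; adjusted p = 0.0678). HDAC5, which represses MEF2 factors, rose by 3.31 ± 0.33 on the log2 scale, and AKT1, the kinase that holds FOXO1 out of the nucleus, fell from 7670 ± 342 to 4356 ± 460. The acetyltransferase gene KAT2B changed by 1.38 ± 0.20, and NCL, which encodes nucleolin, changed by -1.35 ± 0.07.

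Compared per length, the 8 genes spanned a wide range of levels. Normalized counts in DMSO libraries were divided by the longest basic protein-coding transcript of GENCODE 29 in kilobases. IL7R stood at 5824 ± 334 per kb and CXCR4 at 5592 ± 554, and their ranges overlapped. KLF6 followed at 1693 ± 77.0, KLF13 at 309 ± 73.3, CCR9 at 116 ± 11.5, CCR7 at 53.4 ± 4.59, KLF3 at 30.8 ± 4.56 and S1PR1 at 5.15 ± 3.21, with no overlap between neighbours in that stretch of the order. In MB1-47 libraries CXCR4 stood at 6742 ± 251 per kb and IL7R at 5045 ± 499, without overlap. There CCR9 at 239 ± 19.7 lay within the range of KLF13 at 248 ± 124, and KLF3 at 46.7 ± 8.12 overlapped CCR7 at 34.2 ± 8.55. Neither overlap held in MB1-47 libraries with the median transcript length. CCR9 then ran from 232 to 272 per kb and KLF13 from 305 to 729. KLF3 ran from 58.1 to 81.4 and CCR7 from 30.3 to 47.3. The order of IL7R and CXCR4 depends on the transcript assumed: with the median transcript length IL7R was at 26837 ± 1538 per kb in DMSO libraries and CXCR4 at 5925 ± 587.

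**Figure D4:**
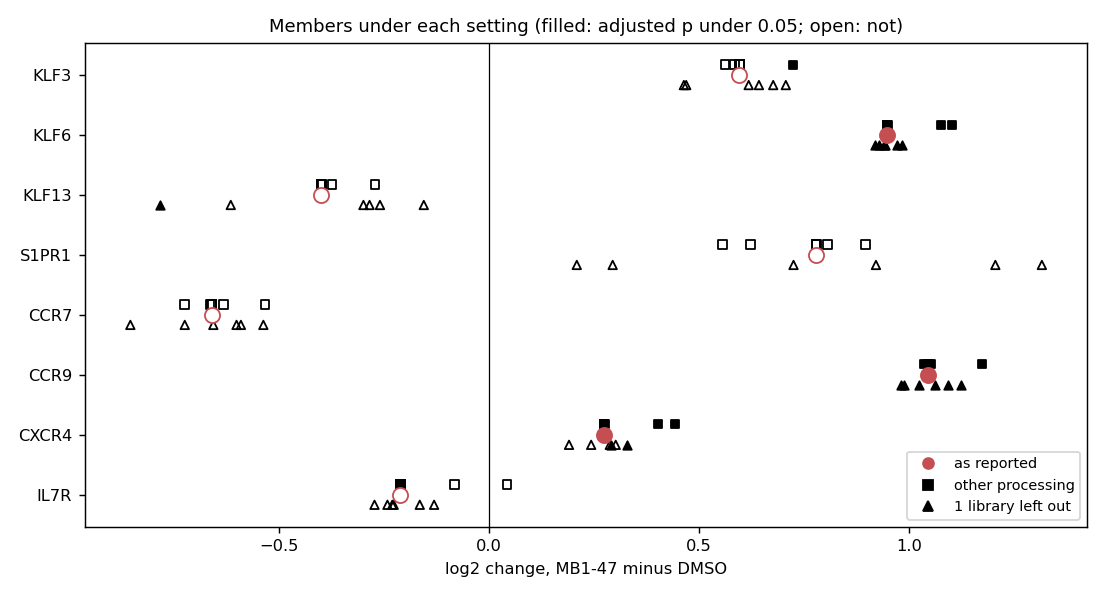
Log2 change of MB1-47 minus DMSO for each of the 8 genes as reported (large circle), under other processing (squares) and with 1 library left out (triangles), filled where the adjusted p was under 0.05. KLF6 and CCR9 are filled throughout, CXCR4 is open in 5 of 15 alternatives, and IL7R crosses 0 once, at 0.04.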

How the data were processed

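Strand-specific RNA-seq of total RNA was deposited as 1 table of 6 libraries. Its values are normalized counts per gene symbol, treated here as a non-negative signal made by the authors; per the submitters' processing notes kallisto 0.44.0, DESeq and GRCh38.p13 were used, and the annotation and any filters are unstated in the sources used here. Low values resolved only in part into whole reads: 60.5% to 66.0% per library lay within 0.1 of a multiple of the best step. The share expected without such a step was not computed. As the rest did not resolve, no count test was run.

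Genes with a mean of at least 10 were fitted with limma 3.58.1 in R 4.3.3 on log2(value + 1) with an intensity trend. Adding 1 shrinks the log2 changes of low genes, but a library near 0 can still enlarge them. For CXCR5, listed at 0 in a DMSO library, the fitted fold was 6.96 and the ratio of means 2.41. The steps were tested on simulated data; a first pass mark on recovery over all genes was missed, and the mark was then set on genes at 100 or more. The members and lists were chosen with earlier results of these data known. Of 285 list genes, 256 matched by symbol.

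Named were the 9 genes, KLF4, FOXO1, CD69, S1PR4, CXCR5, IL2RG, BCL2, SGPL1, MAPK7, MEF2D and HDAC5, and from each list genes that passed and averaged 50 or more, at most 5 per direction by size. Some genes the rule names are not reported here, and its comparison with KLF2 was not run. Further lists were markers of other cells: B lineage (1 of 5 tested genes higher, EBF1, and 1 lower, CD79A), myeloid (0 tested), erythroid (0 of 1 past the threshold) and endothelial (PECAM1 lower, 1 of 1). Positions are from GENCODE 29 on GRCh38, promoters from RefSeq on GRCh38.p14. The trimmed mean of M values, an alternative scaling, was unweighted. Python 3.11.15 and matplotlib 3.10.9 drew the figures.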

Additional observations from a re-analysis of the deposited data

How the results depend on the processing

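The fit was repeated with other pseudocounts (0.5 and 5), with the filter dropped or raised to 50, with the trimmed mean of M values, equal totals or quantile scaling, with limma's trend off, with the replicate block, and 6 times with 1 library removed. Count tests were not run because whole reads were not recovered for all low values. KLF6 and CCR9 kept their direction and call in all 15, and CCR7 and S1PR1 stayed short of the threshold in all they entered (S1PR1 was under the filter at 50). Genes past the threshold numbered 5125 in all, and 4146 to 5398 under the alternatives. Equal library totals moved the median of all genes from 0.02 to 0.15 and the split from 2458 higher and 2667 lower to 3335 and 2063.

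With equal library totals KLF3 passed at 0.72. Genes lower then numbered 3 of the homing, 1 of the cytokine receptor, 2 of the JAK-STAT and 0 of the FOXO-linked list, and 10 receptor signalling genes were higher. With quantile normalization IL7R turned to 0.043, 0 FOXO-linked genes were lower and 10 receptor signalling genes higher. Without a trend CXCR4 kept 0.27 but lost its call (adjusted p = 0.112), 1 chemokine receptor was higher, and 3 homing, 7 signalling, 2 JAK-STAT and 0 FOXO-linked genes were lower. With no filter 1 FOXO-linked gene was lower. The cause of these shifts was not tested.

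Leaving out 1 library gave KLF13 from -0.78 (without MB1-47 replicate 2) to -0.15, and CXCR4 from 0.19 to 0.33. Members lower ranged from 0 to 1, chemokine receptors higher from 1 to 3, S1P genes lower from 3 to 5, homing genes lower from 3 to 5, signalling genes higher from 2 to 4, cytokine receptors lower from 0 to 4, JAK-STAT genes lower from 2 to 4 and FOXO-linked genes lower from 0 to 1.

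Replicate numbers did not pair the samples: deviations of same-numbered libraries correlated at 0.02, 0.06 and 0.01. With the replicate number as a block, IL7R kept -0.21 with an adjusted p of 0.0273, so 1 member was lower. Depth is unknown, and S1PR1, at a mean of 20.8, is the gene that low signal limits most.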
